A study of Mus musculus with 4 samples.

Results

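Polycomb proteins, histone-modifying enzymes, DNA methylation enzymes and nucleosome remodellers were followed in follicular helper T (TFH) cells with and without the transcription factor Etv5. The set was defined by name: 42 genes were listed, each was looked up in the gene column of the authors' deposited table, and all 42 were found among its 23996 genes. TFH cells are helper T cells that support germinal centre B cells in making high-affinity antibody. Splenic cells positive for CD4, CD44, CXCR5 and PD-1 had been collected from mice on day 7 after ovalbumin (OVA) was given in alum. Both groups carried the floxed allele: WT mice were Etv5f/f without Cre, and knockout mice (Etv5 cKO) were Etv5f/f;Cd4-Cre, in which Cre is driven by Cd4 regulatory sequence and floxed sequence is deleted in T cells. The sources used here do not give the age or sex of the mice or say whether mice were pooled. There were 2 libraries for each genotype, and the labels do not say that these came from separate animals.

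These genes write, remove or read marks on chromatin. Polycomb repressive complex 2 (PRC2) methylates histone H3 to mark silent genes, and Polycomb repressive complex 1 (PRC1) ubiquitinates histone H2A and compacts such regions. DNA methyltransferases and TET enzymes add and oxidise methyl groups on cytosine, while histone acetyltransferases and deacetylases set the acetylation found at active genes. In helper T cells these systems are known for keeping lineage genes silent or open, and EZH2 has been linked to the TFH programme in mice.

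All 42 genes were expressed and tested, and none differed between the genotypes by the authors' test. Their log2 fold changes (Etv5 cKO over WT) ran from -0.31 for Rnf2 to 0.15 for Tet1, and 40 of the 42 lay within 0.2 of zero. The values were higher in Etv5 cKO for 17 genes and lower for 25, with a median log2 fold change of -0.03. Over all 11569 tested genes 51.1% were lower, the median was -0.003 and 78.9% lay within 0.2 of zero. Among the 6272 tested genes with a mean between 10 and 110 FPKM, where 36 of the 42 genes lie, 91.1% were within 0.2 of zero, against 94.4% of those 36.

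Each level is the authors' value in FPKM (fragments per kilobase of transcript, scaled to library size), given once per genotype over both libraries. The spread between libraries and the depth are therefore unknown. Error can be judged only from the deposited scores and p-values of Cuffdiff, the test deposited beside the FPKM values. These may reflect technical spread. Genes with an adjusted p below 0.05 in the authors' deposited table count as called. By Cuffdiff 0 of the 42 genes were called, 0 were below an unadjusted p of 0.05, and no second tool could be run. Of all tested genes 40 (0.346%) were called and 278 (2.4%) were below an unadjusted p of 0.05, so the share of 0 among 42 genes is near the background. In the authors' deposited table every one of the 42 adjusted p-values was 0.999.

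How large a difference could have passed was read from the same table. Among the 6272 genes between 10 and 110 FPKM, the smallest called difference was 0.68 on the log2 scale (1.60-fold), and the smallest with an unadjusted p below 0.05 was 0.35 (1.27-fold). An approximate standard error for each gene was obtained from its deposited p by treating the log2 fold change as normal. Its median over the 42 genes was 0.18, and it ran from 0.17 for Smarca4 to 0.67 for Suv39h2. The approximate 95% intervals of all 42 genes included zero, 29 lay wholly within 0.5 of zero, and 41 lay within 1. Only the interval of Suv39h2, from -1.30 to 1.33, was wider than that. Smaller differences were not detectable at this precision, and a p above the threshold does not show that the levels were equal. The count of 29 intervals within 0.5 rests on errors taken from the deposited p. The deposited Cuffdiff score (-1.22 for Rnf2) would give larger errors if the log2 fold change were divided by it. Fewer intervals would then lie within 0.5, so the count does not exclude differences of that size.

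**Figure D1:**
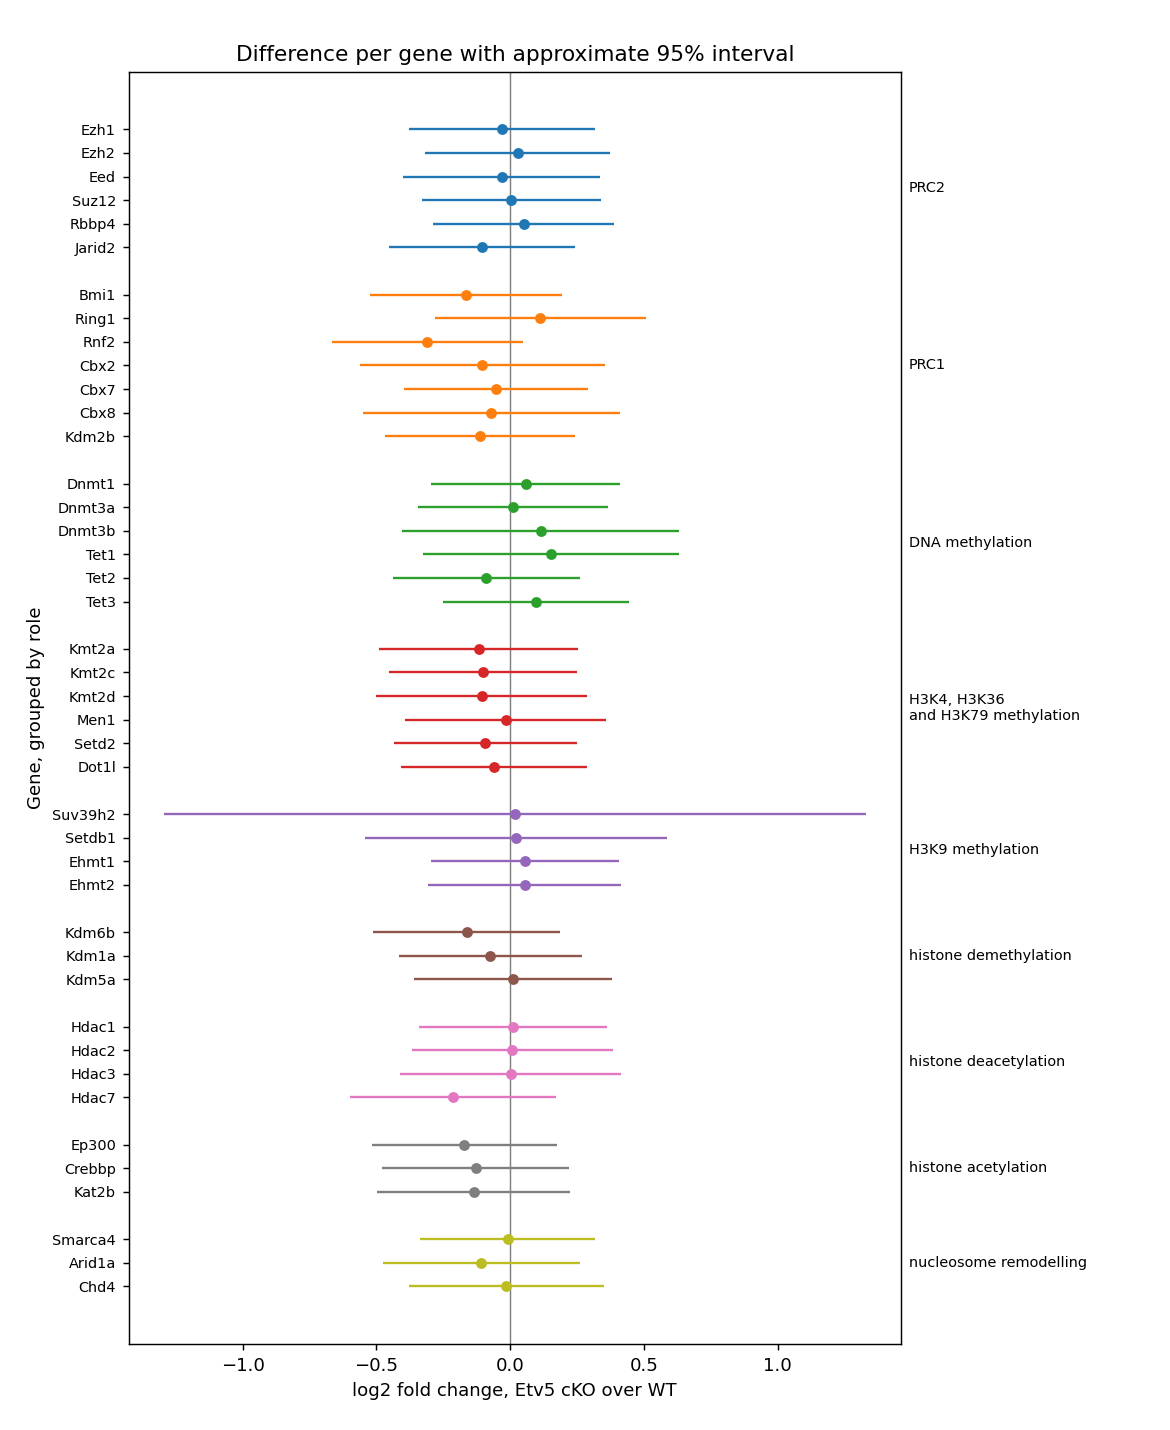
Points give the log2 fold change (Etv5 cKO over WT) of each gene, grouped and coloured by role, and bars give the approximate 95% interval derived from the deposited p. Every bar crosses zero, Rnf2 at -0.31 comes closest to leaving it, and Suv39h2 has the widest bar.

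The libraries had the transcripts of the sorted cells. Cd3e (578 and 522 FPKM in WT and Etv5 cKO), Cd4 (460 and 470 FPKM) and Cxcr5 (183 and 158 FPKM) were abundant, and Etv5 itself fell to 40.4% of its WT level (5.24 and 2.12 FPKM, Cuffdiff adjusted p = 0.0181 in the authors' deposited table). Of the 8 listed sort and identity genes of TFH cells, 6 had lower values in Etv5 cKO and 2 higher (median log2 fold change -0.14), with summed levels of 1816 and 1698 FPKM. By Cuffdiff 0 of these were called and 1 was below an unadjusted p of 0.05, the cytokine gene Il21 (66.1 and 49.7 FPKM, unadjusted p = 0.0197 and adjusted p = 0.999 in the authors' deposited table). Levels of transcripts typical of dividing cells and of other cell types were as follows. All 20 listed S phase and proliferation genes had higher values in Etv5 cKO, with a median log2 fold change of 0.21, summed levels of 918 and 1026 FPKM, and with 0 called by Cuffdiff and 0 below an unadjusted p of 0.05. The summed level of 6 erythroid markers was 11.5 FPKM in WT and 35.5 FPKM in the knockout. By Cuffdiff 5 of these 6 were called higher, and all 6 were below an unadjusted p of 0.05. Among all 11569 tested genes 12 were called higher, and 278 (2.4%) were below an unadjusted p of 0.05. The sum of 8 myeloid and dendritic markers was 59.3 and 90.5 FPKM. Of the 7 tested, 2 were called higher and 5 were below an unadjusted p of 0.05 by Cuffdiff. Of the B cell markers, Cd79b stood at 4.13 and 4.80 FPKM, Cd79a at 1.001 and 1.43 FPKM, and Pax5, which was not tested, at 0.453 and 0.399 FPKM. CD8 and NK markers summed to 22.0 and 24.8 FPKM over 6 genes. Their part in the values below was not tested. In such bulk samples fewer cells expressing a gene and less RNA per cell cannot be told apart.

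Promoter sequence is shown for 3 genes on which the account below turns: Rnf2, which had the largest difference, Ring1, its paralog, and Ezh2, the catalytic subunit of PRC2. The sequences are RefSeq's on GRCm38.p6 and run from 250 bases before the annotated start to 30 bases after it. Capitals mark matches to the ETS core CGGAAG, the kind of site that Etv5 binds, or to the E2F-like motif TTTNNCGC, both searched on both strands.
Rnf2 (chr1:151500962-151501241, minus strand): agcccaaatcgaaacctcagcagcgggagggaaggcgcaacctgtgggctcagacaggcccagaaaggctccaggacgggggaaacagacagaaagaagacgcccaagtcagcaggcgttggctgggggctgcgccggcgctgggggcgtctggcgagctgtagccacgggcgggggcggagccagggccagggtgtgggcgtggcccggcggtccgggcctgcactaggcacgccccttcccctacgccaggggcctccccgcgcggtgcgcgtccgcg
Ring1 (chr17:34024651-34024930, minus strand): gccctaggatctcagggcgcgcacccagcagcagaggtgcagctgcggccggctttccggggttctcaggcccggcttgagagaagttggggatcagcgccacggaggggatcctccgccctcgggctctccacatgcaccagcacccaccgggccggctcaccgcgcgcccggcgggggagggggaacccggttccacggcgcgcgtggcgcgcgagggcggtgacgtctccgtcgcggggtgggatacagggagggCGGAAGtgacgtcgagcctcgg
Ezh2 (chr6:47595001-47595280, minus strand): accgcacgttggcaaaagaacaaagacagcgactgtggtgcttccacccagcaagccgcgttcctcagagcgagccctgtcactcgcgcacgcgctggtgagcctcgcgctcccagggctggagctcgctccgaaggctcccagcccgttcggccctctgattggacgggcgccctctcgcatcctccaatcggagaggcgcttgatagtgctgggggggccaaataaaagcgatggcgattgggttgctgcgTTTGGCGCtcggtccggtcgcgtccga
The printed window of Rnf2 holds neither motif, that of Ring1 holds the ETS core just after the start, and that of Ezh2 holds the E2F-like motif there.

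RefSeq promoters were matched for 37 of the 42 genes, with 54 start sites of 300 bases each. The ETS core was found in 12.96% of these windows and in 16.9% of all 32851 promoter windows in the table. The E2F-like motif was found in 9.26% of them and in 5.17% of all windows. For the 7 genes with an ETS core the median log2 fold change was -0.009, with 4 lower, and the 30 without it had a median of -0.04, with 19 lower. Over tested genes with and without the core the medians were -0.005 and -0.0005. The 5 genes with the E2F-like motif (Ezh2, Suz12, Dnmt1, Ep300 and Arid1a) had a median of 0.004, with 2 lower. The 32 without it had a median of -0.04, with 21 lower. Over tested genes with and without this motif the medians were -0.005 and -0.002. These matches are descriptions of letters in a window, not of bound sites.

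PRC2 genes differed little between the genotypes. The catalytic subunit Ezh2, which methylates H3K27 and is abundant in dividing cells (mm10 chromosome 6, 47530274 to 47595030), stood at 48.7 FPKM in WT and at 49.7 FPKM without Etv5 (log2 fold change 0.03, approximate 95% interval -0.32 to 0.37). The alternative catalytic subunit Ezh1 stood at 32.7 and 32.0 FPKM. Ezh2 was therefore the more abundant of the pair per length, 1.49-fold in WT and 1.55-fold in Etv5 cKO. The core subunits Suz12 (60.7 and 60.9 FPKM) and Eed, which binds the methylated mark (35.5 and 34.7 FPKM), and the histone chaperone Rbbp4 (70.0 and 72.5 FPKM), which PRC2 shares with other complexes, differed as little. Jarid2, an accessory subunit that helps recruit PRC2, had the largest difference of these 6 genes, at 26.1 and 24.3 FPKM (log2 fold change -0.10). The 6 levels summed to 274 FPKM in each genotype, 100.1% of WT in the knockout. Of 5 further PRC2 genes 3 were higher and 2 lower, with 0 called by Cuffdiff and 0 below an unadjusted p of 0.05.

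PRC1 held the largest difference of the set. Rnf2 (RING1B), the main ubiquitin ligase of the complex (mm10 chromosome 1, 151469406 to 151500823), stood at 37.8 FPKM in WT and at 30.5 FPKM without Etv5, which is 80.7% of WT. Its log2 fold change of -0.31 had an approximate 95% interval of -0.67 to 0.05, an unadjusted Cuffdiff p of 0.0885 and an adjusted p of 0.999 in the authors' deposited table. This was the lowest p of the 42 genes. The paralog Ring1 stood at 13.6 and 14.7 FPKM, so Rnf2 exceeded Ring1 2.78-fold in WT and 2.07-fold in the knockout. That change in the ratio was not tested, since it needs values per library. Rnf2 shares exonic sequence on the opposite strand with Trmt1l, and the sources used here do not say how strand was treated in counting.

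The other PRC1 genes also had lower values, each by a small amount. Bmi1, a PCGF subunit that partners the ligases, stood at 33.5 and 29.9 FPKM (log2 fold change -0.17), and Kdm2b, which brings a variant PRC1 to unmethylated CpG islands, at 29.7 and 27.5 FPKM. Among the chromobox proteins, which read H3K27 methylation, Cbx7 dominated at 63.9 and 61.6 FPKM. Cbx8 (6.58 and 6.27 FPKM) and Cbx2 (3.75 and 3.49 FPKM) were far lower, and Cbx7 exceeded Cbx8 9.71-fold and 9.83-fold. In all, 6 of the 7 PRC1 genes had lower values (median log2 fold change -0.10), and the summed level in the knockout was 92.1% of WT. Of 16 further PRC1 genes, among them the PCGF and polyhomeotic subunits, 10 were lower and 6 higher (median -0.04). By Cuffdiff 0 of these were called and 0 were below an unadjusted p of 0.05.

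**Figure D2:**
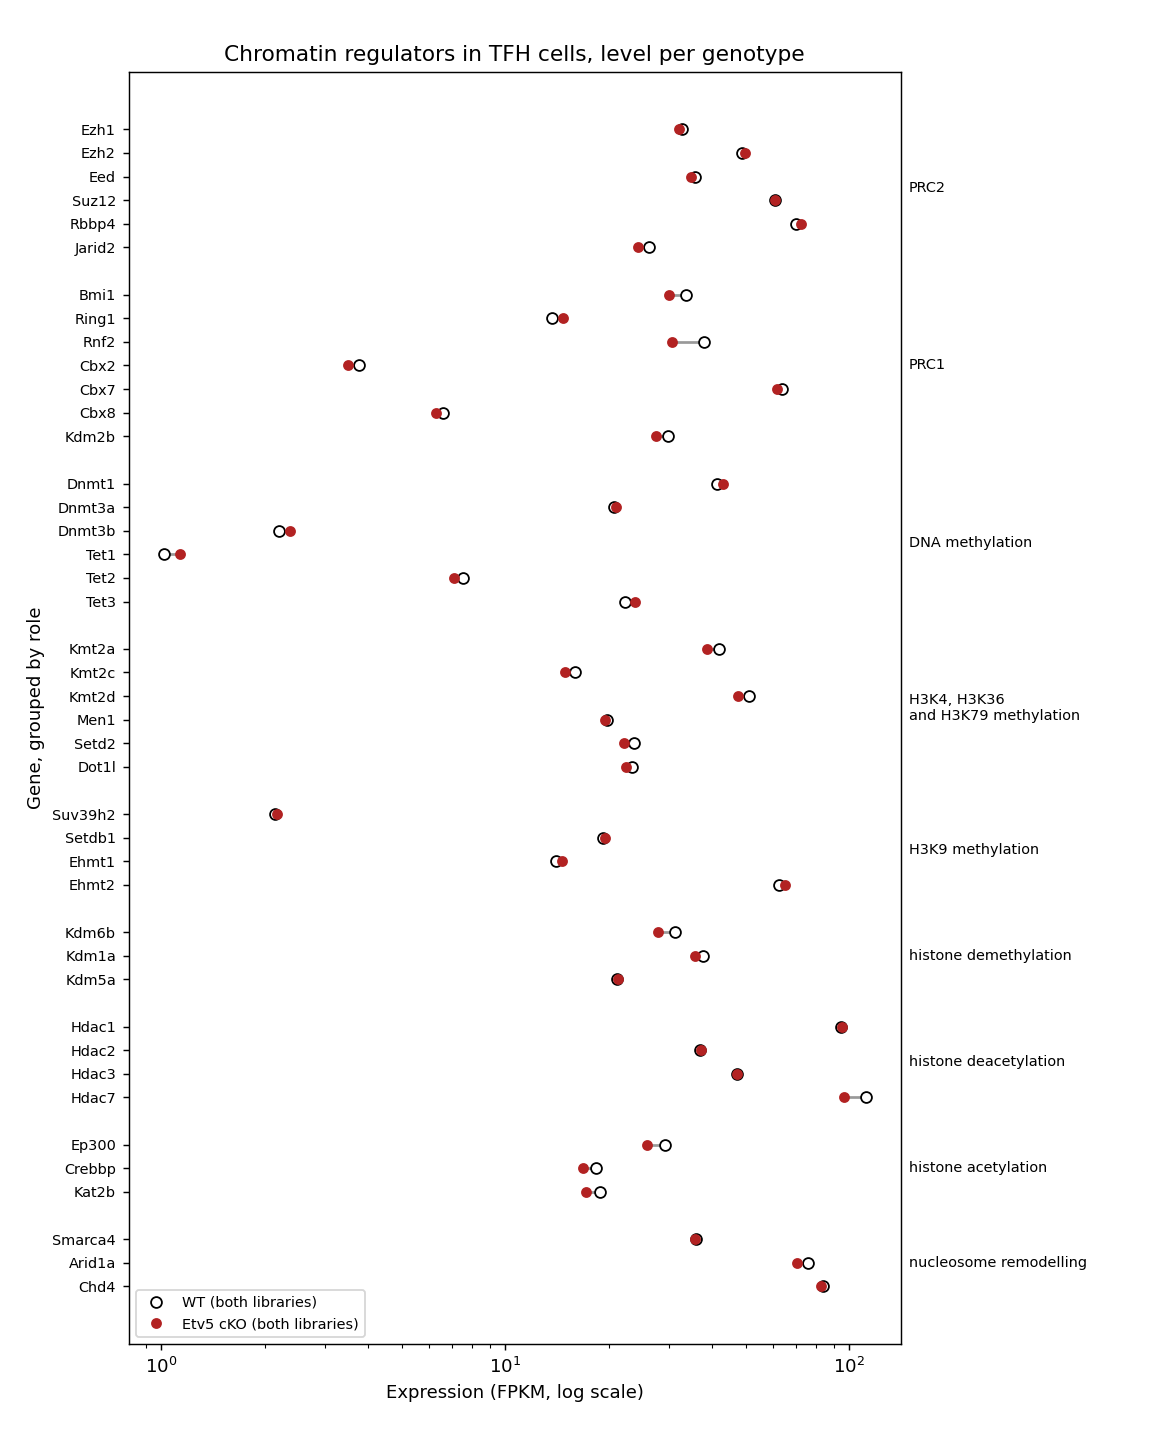
Open circles give the WT level and filled red circles the Etv5 cKO level of each gene in FPKM on a log axis, each over both libraries of the genotype, grouped by role. The paired circles of most genes touch or overlap, the widest gap is that of Rnf2 (37.8 and 30.5 FPKM), and levels span from Tet1 at about 1 FPKM to Hdac7 at 112 FPKM.

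Among DNA methylation genes 5 of 6 had higher values in Etv5 cKO, all by small amounts. The maintenance enzyme Dnmt1, which copies methylation at replication, stood at 41.2 and 42.9 FPKM (log2 fold change 0.06, approximate 95% interval -0.30 to 0.41). Of the de novo enzymes, Dnmt3a stood at 20.8 and 20.9 FPKM and Dnmt3b at 2.19 and 2.37 FPKM, so that Dnmt3a exceeded Dnmt3b 9.47-fold and 8.82-fold. Of the TET enzymes, which oxidise methylcytosine, Tet3 was the most abundant (22.2 and 23.8 FPKM), Tet2 came next (7.53 and 7.08 FPKM) and Tet1 was the least abundant of the whole set (1.02 and 1.13 FPKM). Tet2, known in T cells as a restraint on TFH differentiation in mice, was the 1 gene of the group with a lower value (log2 fold change -0.09, approximate 95% interval -0.44 to 0.26). Among 8 further tested genes of DNA methylation 5 were higher and 3 lower, with 0 called by Cuffdiff and 0 below an unadjusted p of 0.05. They include Uhrf1, which guides Dnmt1 to replicated DNA, at 26.9 and 30.8 FPKM. As given above, all 20 S phase and proliferation genes also had higher values in these libraries, with 0 called and 0 below an unadjusted p of 0.05 by Cuffdiff. Whether proliferation plays a part in the values of the DNA methylation genes was not tested.

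The methyltransferases of active chromatin all had slightly lower values in Etv5 cKO. Kmt2a, Kmt2c and Kmt2d, which methylate H3K4 at promoters and enhancers, stood at 41.7 and 38.4 FPKM, at 15.9 and 14.9 FPKM, and at 51.2 and 47.6 FPKM. Men1, the menin scaffold of the Kmt2a complex, stood at 19.7 and 19.5 FPKM. Setd2, the H3K36 trimethylase (23.6 and 22.1 FPKM), and Dot1l, the H3K79 methylase (23.3 and 22.4 FPKM), showed the same small offset. All 6 genes were lower, with log2 fold changes from -0.12 for Kmt2a to -0.02 for Men1 and a median of -0.10, each smaller than the gene's own approximate standard error. Of 13 further genes of these complexes, which include further enzymes and the shared core subunits, 11 were lower and 2 higher (median -0.07). By Cuffdiff 0 of them were called and 0 were below an unadjusted p of 0.05.

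The enzymes that methylate H3K9, a mark of silent chromatin, had slightly higher values in Etv5 cKO for all 4 genes. Ehmt2 (G9a) stood at 62.6 and 65.0 FPKM and its partner Ehmt1 (GLP) at 14.01 and 14.6 FPKM, so Ehmt2 exceeded Ehmt1 4.47-fold and 4.46-fold. Setdb1, which acts at retroelements, stood at 19.3 and 19.5 FPKM. Suv39h2, a heterochromatin enzyme, was low at 2.15 and 2.17 FPKM, and its deposited locus extends beyond the RefSeq gene and overlaps exons of Dclre1c on the other strand. The largest log2 fold change of the 4 was 0.06. The 8 further genes of the H3K9 system did not lean the same way, with 3 higher, 5 lower, 0 called by Cuffdiff and 0 below an unadjusted p of 0.05.

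The demethylases in the set differed little, while Y-linked members of their families did. Kdm6b (JMJD3), which removes H3K27 methylation and is induced by stimulation, stood at 31.1 and 27.8 FPKM (log2 fold change -0.16, approximate 95% interval -0.51 to 0.19). Kdm1a (LSD1), which acts on H3K4, stood at 37.5 and 35.6 FPKM, and Kdm5a, another H3K4 demethylase, at 21.1 and 21.2 FPKM. Of 16 further demethylase genes 2 fell by the Cuffdiff test, Uty and Kdm5d, against 28 called lower (0.242%) among all tested genes. Uty, the Y-linked relative of Kdm6a, fell from 5.41 to 2.23 FPKM (log2 fold change -1.28), and Kdm5d, the Y-linked relative of Kdm5c, fell from 8.80 to 3.45 FPKM (log2 fold change -1.35), each with an adjusted p of 0.0181 in the authors' deposited table. The X-linked Kdm6a stood at 26.9 and 29.9 FPKM and Kdm5c at 22.3 and 24.6 FPKM, neither called by Cuffdiff (adjusted p = 0.999 each in the authors' deposited table). The X and Y copies together came to 32.3 and 32.2 FPKM for Kdm6a with Uty, and to 31.1 and 28.0 FPKM for Kdm5c with Kdm5d. The Y-linked genes Ddx3y (21.8 and 8.60 FPKM) and Eif2s3y (27.4 and 11.8 FPKM) also fell, each with a Cuffdiff adjusted p of 0.0181 in the authors' deposited table. Xist, made by the inactive X chromosome, stood at 110.1 and 171.7 FPKM and was not called (unadjusted p = 0.0437 and adjusted p = 0.999 by Cuffdiff in the authors' deposited table). Transcripts of Y-linked genes and of Xist were thus present in both genotypes, and the sexes of the mice in each group and the genotype cannot be told apart for these genes.

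**Figure D3:**
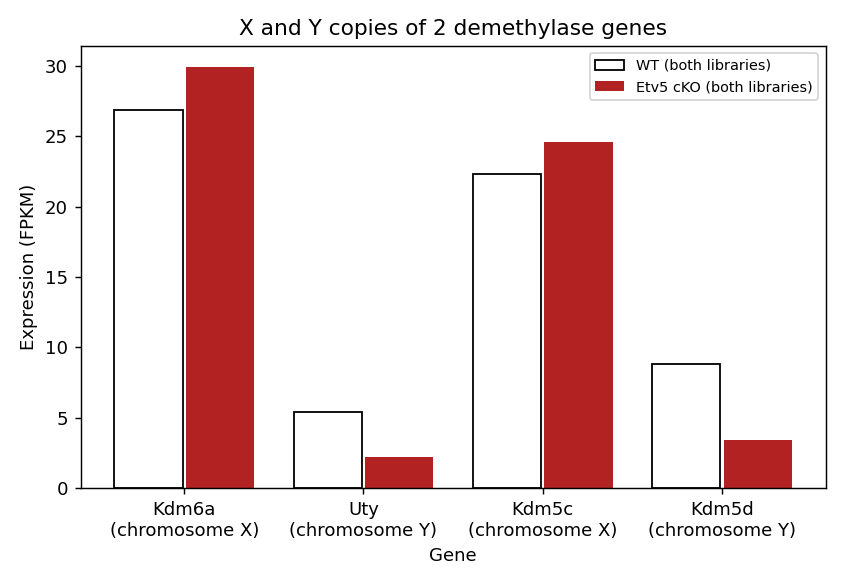
Bars give the level in FPKM, from 0, of the X-linked Kdm6a and Kdm5c and of their Y-linked relatives Uty and Kdm5d in WT (open) and Etv5 cKO (filled), each over both libraries of the genotype. Uty and Kdm5d fell to 41.2% and 39.2% of WT, while the values of Kdm6a and Kdm5c were slightly higher.

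Among the histone deacetylases, which form repressor complexes, 3 of 4 had near-identical levels. Hdac1 stood at 94.2 and 94.9 FPKM, Hdac2 at 36.8 and 37.0 FPKM, and Hdac3, the catalytic subunit of the NCoR complexes, at 47.2 and 47.2 FPKM. Hdac7, a class IIa deacetylase prominent in T lineage cells, was the most abundant gene of the set and had the second lowest p. Its level was 111.6 FPKM in WT and 96.2 FPKM without Etv5 (log2 fold change -0.21, approximate 95% interval -0.60 to 0.17, unadjusted p = 0.276 and adjusted p = 0.999 by Cuffdiff in the authors' deposited table). Of 17 further deacetylase and corepressor genes 13 were lower and 4 higher (median -0.03), with 0 called by Cuffdiff and 0 below an unadjusted p of 0.05.

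The acetyltransferases that acetylate histones at enhancers and promoters were lower in value for all 3 genes. Ep300 (p300) stood at 29.1 and 25.8 FPKM, its relative Crebbp (CBP) at 18.4 and 16.8 FPKM, and Kat2b (PCAF) at 18.8 and 17.1 FPKM. Their log2 fold changes were -0.17, -0.13 and -0.14, each smaller than the gene's approximate standard error of 0.18. Ep300 exceeded Crebbp 1.59-fold in WT and 1.54-fold in the knockout. Of 9 further genes that write or read acetylation 7 were lower and 2 higher, with 0 called by Cuffdiff and 0 below an unadjusted p of 0.05.

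The nucleosome remodellers were among the more abundant genes of the set. Chd4, the ATPase of the NuRD complex, stood at 83.6 and 82.8 FPKM, and Smarca4 (BRG1), the ATPase of the BAF complex, at 35.7 and 35.5 FPKM. Arid1a, the DNA-binding subunit of BAF, stood at 75.7 and 70.2 FPKM (log2 fold change -0.11, approximate 95% interval -0.48 to 0.26). Of 28 further remodelling genes 17 were lower and 11 higher (median -0.03), with 0 called by Cuffdiff and 0 below an unadjusted p of 0.05. In all, 120 further genes of these complexes were tested, 81 lower and 39 higher (median log2 fold change -0.03), and apart from Uty and Kdm5d none was called or below an unadjusted p of 0.05.

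**Figure D4:**
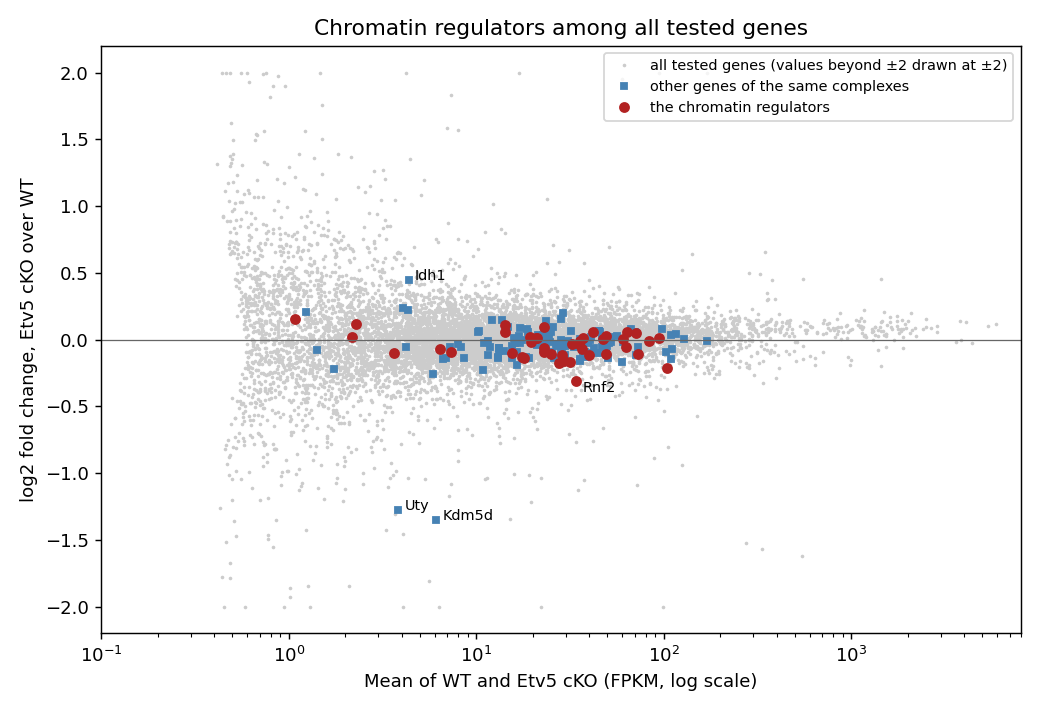
Each point is a gene, with its mean level in FPKM on a log axis and its log2 fold change (Etv5 cKO over WT): grey for all tested genes (values beyond 2 in either direction drawn at 2 or -2), blue for other genes of the same complexes, red for the 42 chromatin regulators. The red points lie in or near the dense band around zero, and the Y-linked Uty (-1.28) and Kdm5d (-1.35) are the blue points far below it.

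Transcript length, which the choice of genes did not use, varied together with the small offsets. Several enzymes in the set have very long messages, and 18 of the 42 genes have a longest GENCODE transcript of at least 6000 bases, a limit chosen after the values were seen. Of these 14 had lower values in Etv5 cKO (median log2 fold change -0.09), against 11 of the other 24 genes (median 0.003). The same tilt was present in the table as a whole: 65.2% of 1490 tested genes with such long transcripts were lower, against 49.0% of 10005 shorter ones, with medians of -0.04 and 0.003. Across the 42 genes Spearman's rho between length and log2 fold change was -0.16, and across 11495 tested genes it was -0.18, as descriptions over genes that share the same libraries. Among the 18 genes of the set with long transcripts, the 4 exceptions with higher values were the TET enzymes Tet1 (14369 bases) and Tet3 (10904 bases), Dnmt3a and Kdm5a. Whether length plays a part in the lower values of the Kmt2, Setd2, Ep300 and Crebbp genes was not tested.

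**Figure D5:**
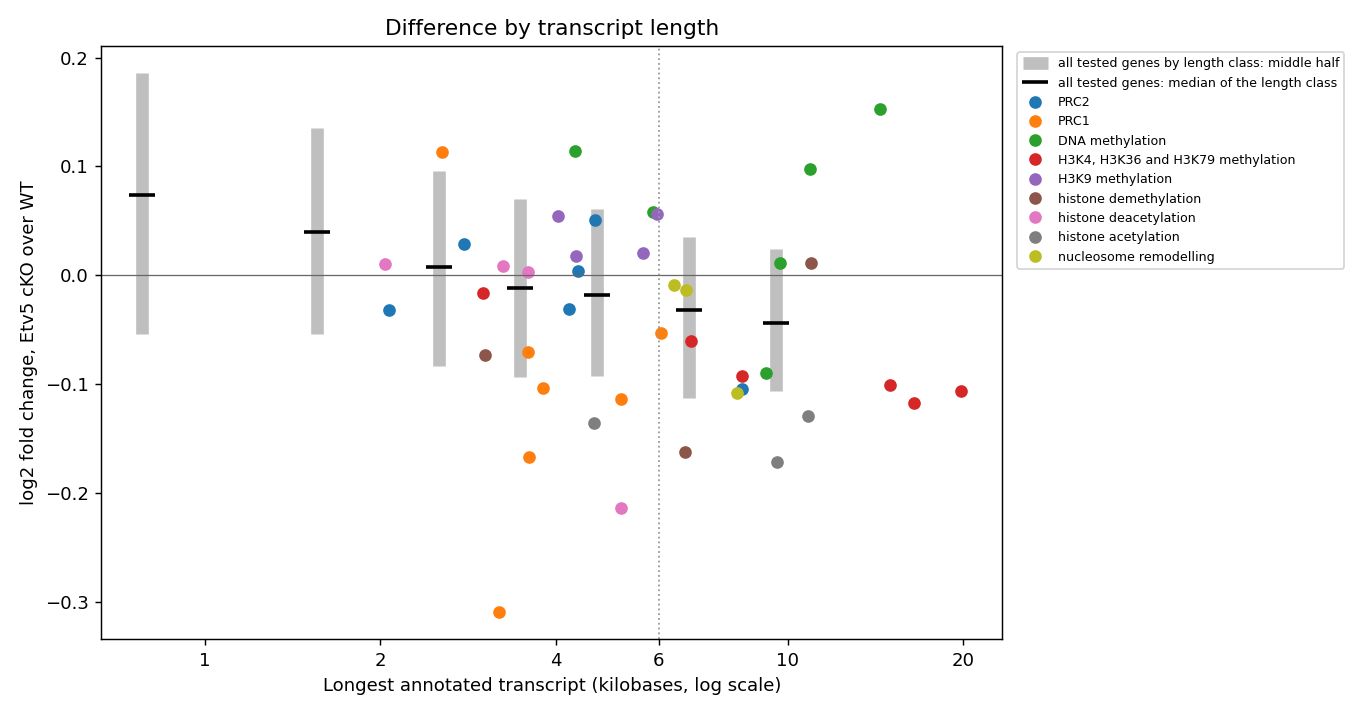
Coloured points give the log2 fold change (Etv5 cKO over WT) of the 42 genes against the longest annotated transcript in kilobases on a log axis, by role. Grey bars and black ticks give the interquartile range and the median of all tested genes in 7 length classes, whose medians run from 0.07 below 1 kilobase to -0.04 from 8 kilobases, and the dotted line marks 6 kilobases.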

How the data were processed

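The labels' protocols give a stranded kit for poly(A) RNA, used on 2 WT and 2 Etv5 cKO samples. TopHat2 2.0.13, Cuffdiff 2.2.0 and mm10 are named in the submitters' processing notes, and the annotation, strand setting and normalization are not given in the sources here. The authors deposited 1 FPKM value per gene and genotype, with both libraries joined, per the file headers. Beside it the authors' table has the log2 fold change, the fold ratio, the Cuffdiff score, the p-value and its adjusted value. FPKM depends on the authors' transcript lengths, on how shared reads were divided and on library composition. Deposited log2 fold changes matched the log2 of the FPKM ratio, without a pseudocount, within 4.09e-11. Of 23996 genes 11569 were tested; 1 line of the table was empty.

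The genes and lists were chosen with earlier results of these data known. Log2 fold changes were computed from FPKM. Approximate standard errors are the absolute log2 fold change over the normal deviate of the deposited two-sided p. Levels of the genes are comparable per length only. All 42 genes were named; of 121 further genes, those with an unadjusted p below 0.05 and the X and Y demethylase relatives were named by rule, as were up to 3 genes of highest level per marker list. Other genes were named after their values were seen. Starts were made 1-based by adding 1. The deposited loci of some genes (Rbbp4, Suv39h2, Setdb1, Kdm5a and Hdac7 among them) reach into neighbouring genes; exons of 16 of the 42 genes overlap an annotated gene on the opposite strand and 5 one on the same strand in GENCODE M21 (GRCm38, the assembly behind mm10), so reads may be shared. Longest transcripts came from GENCODE M21 (99.4% of tested genes matched) and promoters from RefSeq on GRCm38.p6. Software was matplotlib 3.10.9, scipy 1.17.1, pandas 2.3.3 and Python 3.11.15. Alternatives were pseudocounts, centring, quantile normalization, a level filter and other thresholds.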

Additional observations from a re-analysis of the deposited data

How the results depend on the processing

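The deposited values per genotype limit what can be varied: leaving out a library was not run, because no value per library was analysed here. No paired analysis was possible because the table joins replicates 1 and 2 of a genotype into 1 value. The count of 0 called genes among the 42 was also 0 at an adjusted p below 0.1, at an unadjusted p below 0.05, and when adjusted over genes of at least 5 FPKM or over every listed gene. The split of 17 higher and 25 lower was 13 and 29 after quantile normalization and 14 and 24 among the 38 genes of at least 5 FPKM, and centring left it as it was. The median log2 fold change of -0.03 was -0.0425 among genes of at least 5 FPKM. Only quantile normalization turned single genes, Suz12 to -0.0152, Hdac1 to -0.00959, Hdac2 to -0.00215 and Hdac3 to -0.00601; pseudocounts of 0.1, 1 and 5 and centring turned none of the 42. Among further genes of these complexes the 2 called genes became 0 without chromosome Y, an alternative chosen after seeing the data, with 0 then below an unadjusted p of 0.05 by Cuffdiff.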

Other observations

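Histone variants, histone chaperones and chromosome structure proteins, a list of 20 genes drawn up after the values of the chromatin regulators were seen, had higher values in Etv5 cKO for 17 genes and lower for 3, with a median log2 fold change of 0.07. By Cuffdiff 0 of them were called in the authors' deposited table and 0 were below an unadjusted p of 0.05. The largest differences were those of H2afx, the variant that marks DNA breaks (72.7 and 86.1 FPKM in WT and Etv5 cKO), Asf1b, a histone chaperone of dividing cells (26.6 and 31.3 FPKM), and Lmnb1, a lamin of the nuclear envelope (63.7 and 74.3 FPKM). The cohesin subunits Rad21 (81.4 and 81.5 FPKM) and Smc3 (28.7 and 28.8 FPKM) and the insulator protein Ctcf (67.1 and 66.5 FPKM) had near-identical levels.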
